A study of Mus musculus with 24 samples.

Results

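The genes of transforming growth factor beta (TGF-beta), bone morphogenetic protein (BMP) and SMAD signalling were followed in livers of Abcb4 knockout mice from 3 to 20 weeks. Members were chosen by gene symbol alone: TGF-beta ligands and receptors, latent TGF-beta binding proteins, activin and inhibin subunits, BMP and growth and differentiation factor (GDF) ligands, activin and BMP receptors, and SMADs. This gave 48 of the 16504 named genes on the array, read by 53 probes. A choice by symbol has its limits: Bmp1, a procollagen C-proteinase, and Bmp2k, a kinase, carry the name without being ligands, and genes of the family that the symbol rule or the annotation does not reach are not analysed here.

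Each of 24 arrays with 2 colours carried liver RNA of male abcb4 (-/-) mice (FVB.129P2-Abcb4tm1Bor/J) in one dye and of male FVB/NJ abcb4 (+/+) controls in the other. There were 6 arrays at each of 3, 6, 9 and 20 weeks, 3 with the knockout in Cy5 and 3 with it in Cy3, and no treatment was given to either genotype per the labels. Abcb4 encodes the canalicular transporter that moves phosphatidylcholine into bile, and its loss is a standard mouse model of sclerosing cholangitis and biliary fibrosis. The array titles were taken for the week because the source names give 3 weeks throughout and the description counts weeks from weaning. The submitters state 5 mice a genotype and week with 1 dye swap, and the labels do not say which arrays repeat a mouse, so the 6 arrays of a week are not 6 independent pairs of mice and the p-values are too small by an unknown amount.

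TGF-beta is secreted as a latent complex, bound to its own propeptide and to a latent TGF-beta binding protein that tethers it to the extracellular matrix. Once released it binds the type II receptor TGFBR2, which recruits and phosphorylates the type I receptor TGFBR1, and the receptor in turn phosphorylates SMAD2 and SMAD3. Activins act on the same SMADs through their own receptors, BMPs act on SMAD1, SMAD5 and SMAD9, and SMAD4 is the shared partner. In liver the TGF-beta arm is best known for driving hepatic stellate cells and portal fibroblasts to make matrix, and the BMP arm for controlling hepcidin, the iron hormone.

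The promoters of 5 members are shown because the comparisons below turn on these genes: Tgfbr2, Gdf10 and Inhbc were the members whose ratio differed between weeks, and Ltbp2 and Ltbp3 came next in that test. Each runs from 250 bases before the annotated start to 50 after it, 5′ to 3′ on the gene's strand, from RefSeq on GRCm38.p6. Capitals mark CAGAC, the core of the SMAD binding element, and GGGCGG, the Sp1 box, each on either strand (GTCTG and CCGCCC), and the matches of the pair of motifs shared 0 bases.
Tgfbr2, chr9:116175314-116175613, minus strand: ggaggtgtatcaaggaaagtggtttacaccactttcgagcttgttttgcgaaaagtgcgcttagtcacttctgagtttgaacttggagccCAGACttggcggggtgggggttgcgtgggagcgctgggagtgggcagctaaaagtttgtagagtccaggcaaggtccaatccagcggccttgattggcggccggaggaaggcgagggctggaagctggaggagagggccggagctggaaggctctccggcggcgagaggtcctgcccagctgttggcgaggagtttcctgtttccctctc
Gdf10, chr14:33923337-33923636, plus strand: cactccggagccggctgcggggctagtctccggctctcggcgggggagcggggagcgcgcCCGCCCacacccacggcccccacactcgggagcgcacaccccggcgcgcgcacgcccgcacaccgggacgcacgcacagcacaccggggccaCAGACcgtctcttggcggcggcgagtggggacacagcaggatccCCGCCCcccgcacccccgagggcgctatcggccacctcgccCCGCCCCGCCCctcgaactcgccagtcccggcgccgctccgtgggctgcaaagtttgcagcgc
Inhbc, chr10:127370499-127370798, minus strand: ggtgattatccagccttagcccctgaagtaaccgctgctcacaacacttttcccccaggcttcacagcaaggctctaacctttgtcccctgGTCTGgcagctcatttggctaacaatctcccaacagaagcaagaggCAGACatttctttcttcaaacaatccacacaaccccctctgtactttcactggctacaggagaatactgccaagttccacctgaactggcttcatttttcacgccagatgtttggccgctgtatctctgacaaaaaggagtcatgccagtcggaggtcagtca
Ltbp2, chr12:84876442-84876741, minus strand: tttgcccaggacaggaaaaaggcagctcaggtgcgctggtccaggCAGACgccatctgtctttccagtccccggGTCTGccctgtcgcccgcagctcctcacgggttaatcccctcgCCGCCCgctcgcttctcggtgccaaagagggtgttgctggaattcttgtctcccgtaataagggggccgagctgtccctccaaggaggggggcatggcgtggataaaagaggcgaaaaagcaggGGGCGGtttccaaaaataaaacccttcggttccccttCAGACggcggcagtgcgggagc
Ltbp3, chr19:5740650-5740949, plus strand: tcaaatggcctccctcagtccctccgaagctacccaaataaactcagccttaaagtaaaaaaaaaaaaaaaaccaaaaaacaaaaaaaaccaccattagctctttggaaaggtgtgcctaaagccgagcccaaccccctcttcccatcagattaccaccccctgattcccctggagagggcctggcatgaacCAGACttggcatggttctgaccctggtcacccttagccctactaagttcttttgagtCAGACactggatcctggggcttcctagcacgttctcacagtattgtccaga
CAGAC or its complement was found once in the Tgfbr2 and Gdf10 windows (1 match each), at 2 places in those of Inhbc and Ltbp3, and at 3 in that of Ltbp2. GGGCGG or its complement had 4 matches in Gdf10 and 2 in Ltbp2, with 0 in the others. Among 32851 promoters of this length, 49.6% held CAGAC and 35.7% held GGGCGG, and so did 46.8% and 61.7% of the 47 promoters of the 37 members matched there. A short motif of this kind is a description of the letters, not a binding site.

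Values are log ratios of knockout over wild type, taken as log2 although the base is not stated, with each array centred on its median, so 0 means no difference relative to the typical gene and no expression level can be read from them. The array medians before centring lay between -0.037 and 0.015. The sign rests on taking Abcb4 as lower in the knockout: its probe then averaged -0.87 ± 0.24 (SD, n = 6 arrays), -1.57 ± 0.37, -1.42 ± 0.66 and -1.34 ± 0.34 at 3, 6, 9 and 20 weeks, below 0 on 24 of 24 arrays. Whether that probe lies in the deleted part is not known here, and with the opposite sign every rise and fall below would be exchanged. A gene was said to have risen or fallen in a week when its mean differed from 0 at an adjusted p below 0.05 in limma's moderated test, fitted to all 24 arrays with a dye term and adjusted over 20861 named genes and unnamed probes. Because the RNA came from whole liver, a change in the share of cells of one kind and a change in RNA per cell cannot be told apart. Array intensities were not used, so the precision is limited by the number of arrays, and a weak probe was not told from a strong one.

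Few members differed at 3 weeks, and 17 or 18 of the 48 did from 6 weeks on, mostly upwards. At 3 weeks 1 member rose and 1 fell, 4.17% of the 48 against 7.39% of all items tested (3.64% higher and 3.75% lower). At 6 weeks 14 rose and 4 fell, which is 37.5% against 20.9%. At 9 weeks 12 rose and 6 fell, 37.5% against 21.3%, and at 20 weeks 11 rose and 6 fell, 35.4% against 13.5%. Of all items, 10.8%, 10.4% and 8.09% rose and 10.1%, 10.9% and 5.37% fell at 6, 9 and 20 weeks. Over named genes alone the shares called were 8.26%, 22.8%, 23.2% and 14.9%. All 6 arrays of a week had 1 sign for 6, 16, 17 and 16 members, against 10.1%, 19.9%, 18.2% and 16.2% of all items. The median ratio over the members stayed near 0, at 0.016, 0.032, 0.014 and 0.055 in the order of the weeks. In the 4 weeks together 28 members passed at least once, 58.3% of them against 35.3% of all items, and 0 passed in opposite directions at different weeks (0.336% of all items). Smad1 was the 1 member that rose at all 4 weeks, as did 1.47% of all items, and 0 members fell at all 4 (0.451%).

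**Figure D1:**
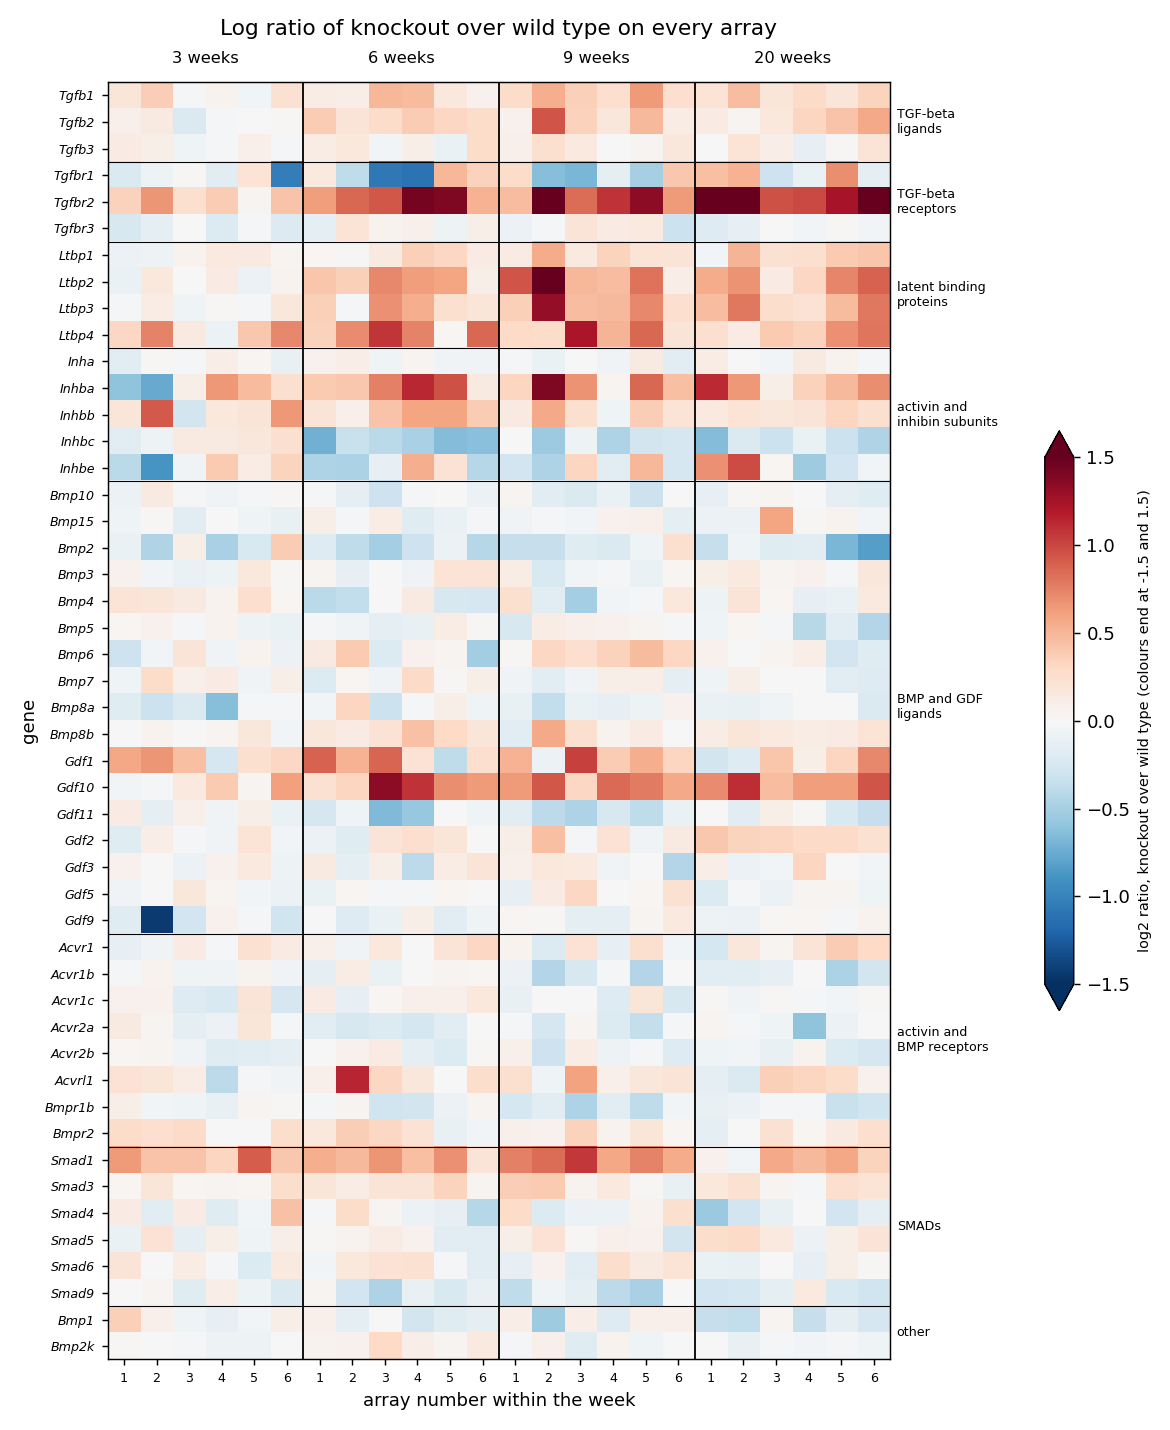
Log2 ratio of knockout over wild type on each of the 6 arrays a week at 3, 6, 9 and 20 weeks (columns). Rows are the 48 members, grouped by role. Tgfbr2, Gdf10, Smad1, Inhba, Ltbp2, Ltbp3 and Ltbp4 are among the members with higher weekly means. Averaged over its 6 arrays, Inhbc had the lowest mean of the members at 6 weeks (-0.54). Most BMP ligands and activin receptors stay pale.

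How firmly these calls stand varied between members. There were 55 calls over the members and weeks, and 25 of them, in 14 genes, held in each of 16 alternative fits (17 at 3 weeks) that changed the scaling, dye term, probe choice or variance model, averaged look-alike arrays, or left out 1 array. Fits on the 3 arrays a week of a single dye orientation are not counted among these. A further 24 calls ended when a single array was left out. The 6-week count fell from 18 to 10 without array 3 and to 11 without array 4, and the 20-week count from 17 to 9 without array 5 or without array 6. The 6-week arrays 3 and 4, both with the knockout in Cy5, were also the pair that read most alike in that week (r = 0.77 over all items, on values turned to knockout over wild type).

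Of the TGF-beta ligands, Tgfb1 and Tgfb2 rose from 6 weeks on and Tgfb3 passed at no week. Tgfb1, the isoform best known from fibrotic liver, averaged 0.13 ± 0.16 at 3 weeks, with values from -0.041 to 0.36 (median 0.12) that lay on both sides of 0. At 6 weeks its arrays ran from 0.065 to 0.50 (median 0.13; mean 0.23 ± 0.20; adjusted p = 0.0126). At 9 weeks they ran from 0.25 to 0.64 (median 0.32; mean 0.39 ± 0.17; adjusted p = 1.4e-04), and at 20 weeks from 0.18 to 0.46 (median 0.25; mean 0.28 ± 0.11; adjusted p = 0.00593). All 6 arrays were above 0 in each of these 3 weeks, but the highest pair at 6 weeks was arrays 3 and 4 at 0.50 and 0.48, with the other arrays at 0.16 or less. Without array 3 the 6-week mean was 0.19 (adjusted p = 0.0722) and without array 4 also 0.19 (adjusted p = 0.0707), whereas the calls at 9 and 20 weeks held in all 16 alternatives.

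Tgfb2, an isoform made in bile duct epithelium and stroma, was flat at 3 weeks, from -0.22 to 0.13 (median 0.011). At 6 weeks its 6 arrays lay close together, from 0.19 to 0.38 (median 0.29; mean 0.30 ± 0.07; adjusted p = 0.00936). At 9 weeks they spread from 0.067 to 0.95 (median 0.26; mean 0.36 ± 0.33; adjusted p = 0.00212) and at 20 weeks from 0.043 to 0.57 (median 0.24; mean 0.27 ± 0.20; adjusted p = 0.0235). The 6-week values therefore lay apart from those of 3 weeks without overlap, while the later weeks overlapped them. The 9-week call ended with that week fitted on its own (adjusted p = 0.0964), and the 20-week call ended without array 5 (mean 0.25, adjusted p = 0.073) and without array 6 (0.20, adjusted p = 0.129). Tgfb3 stayed between -0.12 and 0.27 on every array, with weekly means of 0.029, 0.080, 0.11 and 0.067 and adjusted p values of 0.861, 0.259, 0.105 and 0.41.

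The latent TGF-beta binding proteins, which apart from Ltbp2 fold and secrete TGF-beta and anchor it in the matrix, rose as a group of 4. Of them 0 passed at 3 weeks, 3 at 6 weeks, and 4 of 4 at 9 and at 20 weeks. Their group medians were 0.034, 0.40, 0.58 and 0.47. Ltbp2, a matrix protein of elastic fibres that in contrast to its relatives is not known to bind latent TGF-beta, lay between -0.094 and 0.15 at 3 weeks (median 0.028). At 6 weeks it ran from 0.085 to 0.72 (median 0.50; mean 0.47 ± 0.23; adjusted p = 0.00946), at 9 weeks from 0.10 to 1.62 (median 0.66; mean 0.74 ± 0.52; adjusted p = 1.34e-04), and at 20 weeks from 0.12 to 0.88 (median 0.62; mean 0.55 ± 0.28; adjusted p = 0.00451). Each of these weeks had all 6 arrays above 0, and its 3 calls held in all 16 alternatives. Array 2 gave the highest value of the 9-week group for Ltbp1, Ltbp2 and Ltbp3, but not for Ltbp4.

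Ltbp3, which carries latent TGF-beta in many tissues, was near 0 at 3 weeks (from -0.064 to 0.17). Its arrays ran from -0.016 to 0.69 at 6 weeks (median 0.29; mean 0.33 ± 0.26; adjusted p = 0.0267), from 0.26 to 1.32 at 9 weeks (median 0.47; mean 0.60 ± 0.39; adjusted p = 1.94e-04) and from 0.22 to 0.79 at 20 weeks (median 0.46; mean 0.50 ± 0.25; adjusted p = 0.00238). At 9 and 20 weeks every array lay above the highest 3-week array. The 6-week call ended without array 1, 3, 4 or 5, with means of 0.32, 0.27, 0.30 and 0.34 and adjusted p values of 0.063, 0.12, 0.0941 and 0.0521; the later calls held.

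Ltbp4, the isoform tied to elastic fibres and TGFB1, was already spread upwards at 3 weeks, from -0.083 to 0.75 (median 0.36; mean 0.37 ± 0.33), without passing (adjusted p = 0.119). It rose at 6 weeks (0.029 to 1.07, median 0.73, mean 0.63 ± 0.38, adjusted p = 0.00218), at 9 weeks (0.19 to 1.22, median 0.40, mean 0.56 ± 0.40, adjusted p = 0.00466) and at 20 weeks (0.13 to 0.81, median 0.37, mean 0.43 ± 0.26, adjusted p = 0.0375). The weeks overlapped widely. The 9-week call ended with that week fitted on its own (adjusted p = 0.0546), and the 20-week call ended without array 1, 3, 4, 5 or 6, with adjusted p values of 0.0526, 0.0722, 0.0629, 0.119 and 0.142. Ltbp1, the first described carrier of latent TGF-beta, had smaller means. It averaged 0.16 ± 0.14 at 6 weeks and did not pass (adjusted p = 0.0728), though it did with a replicate block (adjusted p = 0.0487). Its means of 0.26 ± 0.16 at 9 weeks and 0.29 ± 0.20 at 20 weeks passed (adjusted p = 0.00452 and 0.00319). The 9-week call of Ltbp1 ended with that week fitted on its own (adjusted p = 0.0554). A later rise of Ltbp1 is not shown, as its difference between 6 and 9 weeks, 0.097, did not pass (adjusted p = 0.932). All 6 of its 9-week arrays were above 0, from 0.13 to 0.56 with a median of 0.20, and at 20 weeks array 1 stood at -0.036 below the others.

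The 3 TGF-beta receptors went separate ways. Tgfbr2, the type II receptor that binds ligand first, was higher in the knockout on all 24 arrays and had the largest weekly mean of the members from 6 weeks on. Its 3-week arrays read 0.34, 0.66, 0.24, 0.39, 0.04 and 0.43, a mean of 0.35 ± 0.21 that did not pass (adjusted p = 0.182). At 6 weeks they read 0.62, 0.86, 0.93, 1.43, 1.40 and 0.53 (mean 0.96 ± 0.38; adjusted p = 5.76e-05). At 9 weeks they read 0.47, 1.82, 0.83, 1.08, 1.34 and 0.64 (mean 1.03 ± 0.50; adjusted p = 2e-05), and at 20 weeks 1.83, 1.5, 0.96, 0.99, 1.23 and 1.72 (mean 1.37 ± 0.37; adjusted p = 1.59e-06). Every 20-week array lay above every 3-week array, while the 6- and 9-week groups each held arrays within the 3-week range. These 3 calls held in all 16 alternatives, and the 3-week mean passed when arrays were scaled to a common spread (0.42, adjusted p = 0.00952) or quantile normalised (0.39, adjusted p = 0.0294).

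Tgfbr1, the type I kinase that TGFBR2 activates, passed at no week and had one of the widest spreads of the family. Its weekly means were -0.21 ± 0.43, -0.26 ± 0.71, -0.21 ± 0.47 and 0.19 ± 0.42, with adjusted p values of 0.684, 0.387, 0.502 and 0.608. The 6-week arrays split by dye orientation: the 3 with the knockout in Cy5 read -0.38, -1.07 and -1.11, and the 3 with it in Cy3 read 0.14, 0.50 and 0.35. At 3 weeks array 6 stood alone at -1.04, with the others between -0.22 and 0.21. Tgfbr3, the co-receptor betaglycan that presents ligand, stayed between -0.33 and 0.20 on all arrays, and its weekly means of -0.14, 0.036, 0.0035 and -0.061 did not pass (adjusted p = 0.168, 0.706, 0.976 and 0.535).

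**Figure D2:**
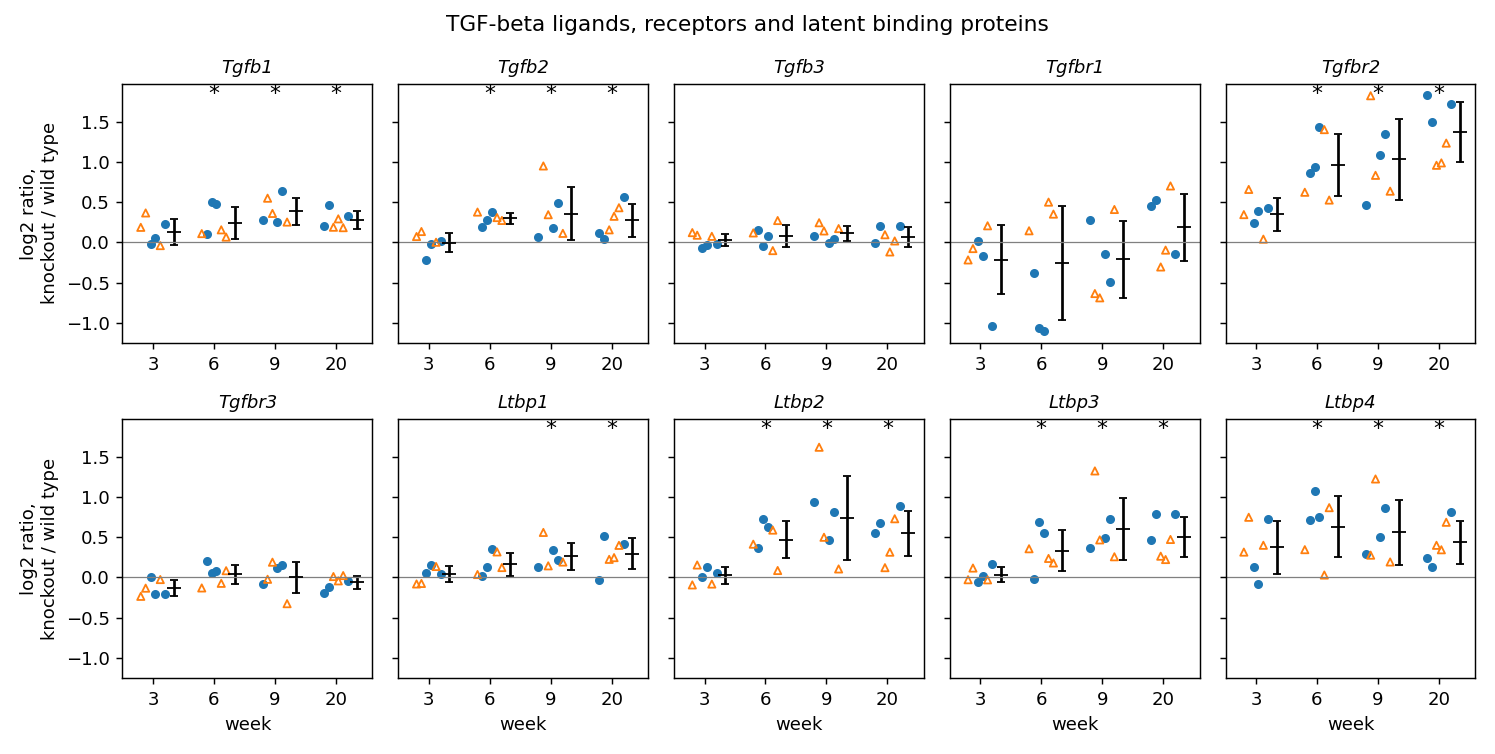
Log2 ratio of knockout over wild type on each of the 6 arrays a week for TGF-beta ligands, receptors and latent TGF-beta binding proteins; filled circles are arrays with the knockout in Cy5, open triangles with it in Cy3, and black marks the mean ± SD, with an asterisk where the adjusted p was below 0.05. Tgfbr2 climbs from a mean of 0.35 at 3 weeks to 1.37 at 20 weeks, and Tgfbr1 scatters on both sides of 0. Of the latent binding proteins 3 passed at 6 weeks and 4 of 4 at 9 and at 20 weeks, and Ltbp4 was already spread upwards at 3 weeks.

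Among the activin and inhibin subunits, Inhba and Inhbc moved in opposite directions. Inhba encodes the beta A subunit of activin A, a TGF-beta-like factor that is scarce in healthy liver and known from liver injury and fibrosis. At 3 weeks its arrays ran from -0.76 to 0.65 (median 0.17; mean 0.016 ± 0.58). It rose at 6 weeks (0.14 to 1.13, median 0.58, mean 0.63 ± 0.38, adjusted p = 0.0111), 9 weeks (0.046 to 1.40, median 0.57, mean 0.63 ± 0.47, adjusted p = 0.00996) and 20 weeks (0.089 to 1.12, median 0.57, mean 0.56 ± 0.35, adjusted p = 0.0298), with all 6 arrays above 0 each time. The 3-week group overlapped each of these, and its arrays 1 and 2 were the low ones at -0.61 and -0.76.

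The Inhba calls depended on single arrays in each week. At 6 weeks the call ended without array 4 (0.55, adjusted p = 0.0547) or array 5 (0.53, adjusted p = 0.055), and at 9 weeks without array 2 (0.44, adjusted p = 0.0655). At 20 weeks it ended without array 1, 2, 4, 5 or 6, with adjusted p values of 0.125, 0.0697, 0.052, 0.0699 and 0.0709.

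Inhbc encodes the beta C subunit, a hepatocyte product that can pair with beta A and so limit activin A. Its 3-week arrays lay on both sides of 0, from -0.16 to 0.25 (median 0.13; mean 0.075 ± 0.16). At 6 weeks all 6 were below 0, at -0.72, -0.34, -0.40, -0.49, -0.65 and -0.62, a mean of -0.54 ± 0.15 (adjusted p = 1.2e-05). At 9 weeks they ran from -0.55 to -0.0091 (median -0.27; mean -0.27 ± 0.21; adjusted p = 0.00704) and at 20 weeks from -0.65 to -0.11 (median -0.32; mean -0.34 ± 0.19; adjusted p = 0.00197). The 6-week arrays did not overlap those of 3 weeks, and the 6- and 20-week calls held in all 16 alternatives. The 9-week call ended when that week was fitted on its own (adjusted p = 0.0829) or with a robust prior (adjusted p = 0.0517).

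Inhbb, the beta B subunit of activin B, rose at 6 weeks (0.082 to 0.59, median 0.41, mean 0.38 ± 0.21, adjusted p = 0.00994), a call that ended without array 4 (0.32, adjusted p = 0.0548). Its means of 0.31 ± 0.42, 0.24 ± 0.21 and 0.22 ± 0.06 at 3, 9 and 20 weeks did not pass (adjusted p = 0.0696, 0.0894 and 0.169), although all 6 arrays of 20 weeks were above 0. Inhbe, the beta E subunit, another hepatocyte product, had means between -0.12 and 0.14 with SDs from 0.38 to 0.58 and passed at no week. Inha, the inhibin alpha subunit, whose usual sites are ovary and testis, stayed between -0.17 and 0.13 on every array.

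Of the 8 activin and BMP receptors, 0%, 12.5%, 25% and 12.5% passed in the order of the weeks. The shares of all items were 7.39%, 20.9%, 21.3% and 13.5%, and 35.3% of all items passed at least once. The 5 receptors that passed at no week were Acvr1, Acvr1c, Acvr2a, Acvr2b and Bmpr2. Acvr1b (ALK4), the type I receptor of activin, fell at 9 weeks (-0.45 to -0.011, median -0.16, mean -0.21 ± 0.20, adjusted p = 0.013) and at 20 weeks (-0.47 to -0.0057, median -0.16, mean -0.20 ± 0.16, adjusted p = 0.0229), below 0 on all arrays of both weeks. The 9-week call ended without array 2 (adjusted p = 0.0729) or 5 (adjusted p = 0.0853), and the 20-week call without array 5 (adjusted p = 0.122) or 6 (adjusted p = 0.0792). Bmpr1b (ALK6), a type I BMP receptor, fell at 9 weeks, from -0.47 to -0.036 (median -0.21; mean -0.24 ± 0.16; adjusted p = 0.00215), a call that held without any single array and ended when that week was fitted on its own (adjusted p = 0.0673). Acvrl1 (ALK1), the endothelial receptor of BMP9 and BMP10, passed at 6 weeks (0.0040 to 1.15, median 0.22, mean 0.33 ± 0.42, adjusted p = 0.0424). That call rested on array 2, the 1.15: without it the mean was 0.15 (adjusted p = 0.259), and it also ended without array 3, 4 or 6 (adjusted p = 0.0935, 0.0677 and 0.0616).

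Of the 17 BMP and GDF ligands, Gdf10 stood out by size. Gdf10 (BMP3b) is a divergent ligand known from bone and from injured brain, and fibroblast-like cells of several mouse tissues express it. At 3 weeks it ran from -0.037 to 0.61 (median 0.092; mean 0.19 ± 0.26; adjusted p = 0.336). It rose at 6 weeks (0.23 to 1.35, median 0.66, mean 0.72 ± 0.43, adjusted p = 1.7e-05), 9 weeks (0.31 to 0.93, median 0.71, mean 0.68 ± 0.23, adjusted p = 2.52e-05) and 20 weeks (0.46 to 1.11, median 0.67, mean 0.75 ± 0.24, adjusted p = 1.86e-05). All 18 arrays of these weeks were above 0, the 3-week range overlapped each of them, and the 3 calls held in all 16 alternatives. Gdf10 also had a dye effect, 0.32 higher with the knockout in Cy5 than in Cy3 (adjusted p = 0.0356), and its means from 6 weeks on were 0.92, 0.76 and 0.92 in the first orientation and 0.52, 0.60 and 0.57 in the second.

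Gdf2 (BMP9), a liver-derived ligand of ACVRL1 that circulates in blood, rose at 20 weeks, where its 6 arrays lay close together from 0.23 to 0.40 (median 0.31; mean 0.31 ± 0.06; adjusted p = 0.00129). All of them were above the highest 3-week array, 0.20, and the call held in all 16 alternatives. Bmp6, which in mice signals iron load to hepcidin, rose at 9 weeks (0.012 to 0.48, median 0.31, mean 0.28 ± 0.15, adjusted p = 0.0154), and the call ended without array 5 (0.25, adjusted p = 0.0669). Bmp2, which with BMP6 controls hepcidin from endothelial cells of the mouse liver, fell at 6 weeks (-0.51 to -0.092, median -0.34, mean -0.32 ± 0.16, adjusted p = 0.0338) and at 20 weeks (-0.82 to -0.068, median -0.26, mean -0.38 ± 0.31, adjusted p = 0.0184).

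These Bmp2 arrays were all below 0, yet the 6-week call ended without array 2, 3, 4 or 6 (adjusted p = 0.0745, 0.113, 0.0724 and 0.0911) and the 20-week call without array 5 or 6 (adjusted p = 0.0824 and 0.102). Gdf11, a relative of myostatin, fell at 6 weeks (mean -0.27 ± 0.28, adjusted p = 0.0116) through arrays 3 and 4 at -0.66 and -0.57, and the call ended without either of them (adjusted p = 0.0769 and 0.0681). At 9 weeks all 6 of its arrays were below 0, from -0.47 to -0.10 (median -0.31; mean -0.29 ± 0.15; adjusted p = 0.00556), and that call held in all 16 alternatives.

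The other ligand calls were small. Bmp8a and Bmp8b are neighbouring mouse genes of very similar sequence that a probe may not tell apart: Bmp8a fell at 3 weeks (-0.64 to -0.019, mean -0.23 ± 0.23, adjusted p = 0.0474) and Bmp8b rose at 6 weeks (0.13 to 0.43, median 0.20, mean 0.24 ± 0.11, adjusted p = 0.00549). The Bmp8a call ended without array 1, 2, 3 or 4 (adjusted p = 0.0914, 0.141, 0.0863 and 0.233), while that of Bmp8b held. Gdf1, which shares a bicistronic transcript with Cers1 so that its probe may read either, rose at 9 weeks (mean 0.45 ± 0.36, adjusted p = 0.0378), with adjusted p values from 0.0514 to 0.174 without array 1, 3, 4, 5 or 6. Bmp10, a heart and liver ligand, fell at 9 weeks by 0.13 on the log2 scale (SD 0.13, adjusted p = 0.0442), ending without array 2, 3, 4 or 5 (adjusted p = 0.115, 0.161, 0.0572 and 0.206).

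Bmp5 fell at 20 weeks on the average of its probes (-0.18 ± 0.20, adjusted p = 0.0326), but one probe averaged -0.37 and the other 0.016, and the call ended without array 4, 5 or 6 (adjusted p = 0.162, 0.073 and 0.162). Bmp3, Bmp4, Bmp7, Bmp15, Gdf3, Gdf5 and Gdf9 passed at no week. Gdf9, an oocyte factor, came nearest at 3 weeks (adjusted p = 0.0524) through 1 array at -1.43. Of the pair matched by name only, Bmp1, which cuts the propeptides off fibrillar collagens, fell at 20 weeks (-0.24 ± 0.16, adjusted p = 0.036) and lost the call without array 1, 2, 4, 5 or 6 (adjusted p from 0.0586 to 0.119). Bmp2k rose at 6 weeks by 0.12 ± 0.10 (adjusted p = 0.0217), on 1 of its probes (0.20 against 0.031), and lost the call without array 3 or 6 (adjusted p = 0.129 and 0.06).

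Of the 6 SMADs, Smad1 was the one that rose throughout. SMAD1 is a receptor-activated transcription factor of the BMP arm. Its 3-week arrays read 0.64, 0.42, 0.43, 0.32, 0.91 and 0.41 (mean 0.52 ± 0.22; adjusted p = 8.15e-05), and at 6 weeks they read 0.55, 0.49, 0.66, 0.45, 0.68 and 0.20 (mean 0.50 ± 0.18; adjusted p = 6.03e-05). At 9 weeks they read 0.75, 0.84, 1.06, 0.57, 0.75 and 0.56, the highest weekly mean (0.76 ± 0.19; adjusted p = 4.02e-07). At 20 weeks they read 0.06, -0.04, 0.57, 0.49, 0.58 and 0.34 (mean 0.33 ± 0.27; adjusted p = 0.00466). The calls at 3, 6 and 9 weeks held in every alternative. At 20 weeks the arrays split by dye orientation, with means of 0.12 for the knockout in Cy5 and 0.55 for it in Cy3, and the call ended with a robust prior (adjusted p = 0.115).

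Smad9 (SMAD8), of the same arm, went the other way and fell slightly from 6 weeks on. Its means were -0.20 ± 0.17, -0.25 ± 0.20 and -0.18 ± 0.17 at 6, 9 and 20 weeks (adjusted p = 0.0112, 0.00157 and 0.028), with all 6 arrays below 0 at 9 weeks only (-0.49 to -0.011, median -0.26). Smad9 had a dye effect of -0.21 (adjusted p = 0.0151): with the knockout in Cy5 its means were -0.29, -0.42 and -0.28, and with it in Cy3 -0.10, -0.071 and -0.070. The 9-week call held in all 16 alternatives. The 6-week call ended without array 3 or 5 (adjusted p = 0.0613 and 0.056), and the 20-week call without array 1, 2, 3, 5 or 6 (adjusted p from 0.0654 to 0.115).

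Smad3, the TGF-beta effector, passed at 6 weeks on the average of its 2 probes (0.041 to 0.34, median 0.19, mean 0.18 ± 0.10, adjusted p = 0.0245). The probes disagreed: one averaged 0.26, 0.30 and 0.28 at 6, 9 and 20 weeks (adjusted p = 0.017, 0.00516 and 0.0147), the other 0.10, -0.012 and 0.0086 (adjusted p = 0.217, 0.912 and 0.951). The averaged call ended without array 1, 3, 4 or 5 (adjusted p = 0.0561, 0.0564, 0.0578 and 0.114), so a rise of Smad3 rests on which probe is read. Smad4, the common partner, Smad5, of the BMP arm, and Smad6, an inhibitory SMAD, passed at no week; at 20 weeks Smad4 averaged -0.23 ± 0.19 (adjusted p = 0.0682) and Smad5 0.15 ± 0.14 (adjusted p = 0.0653).

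**Figure D3:**
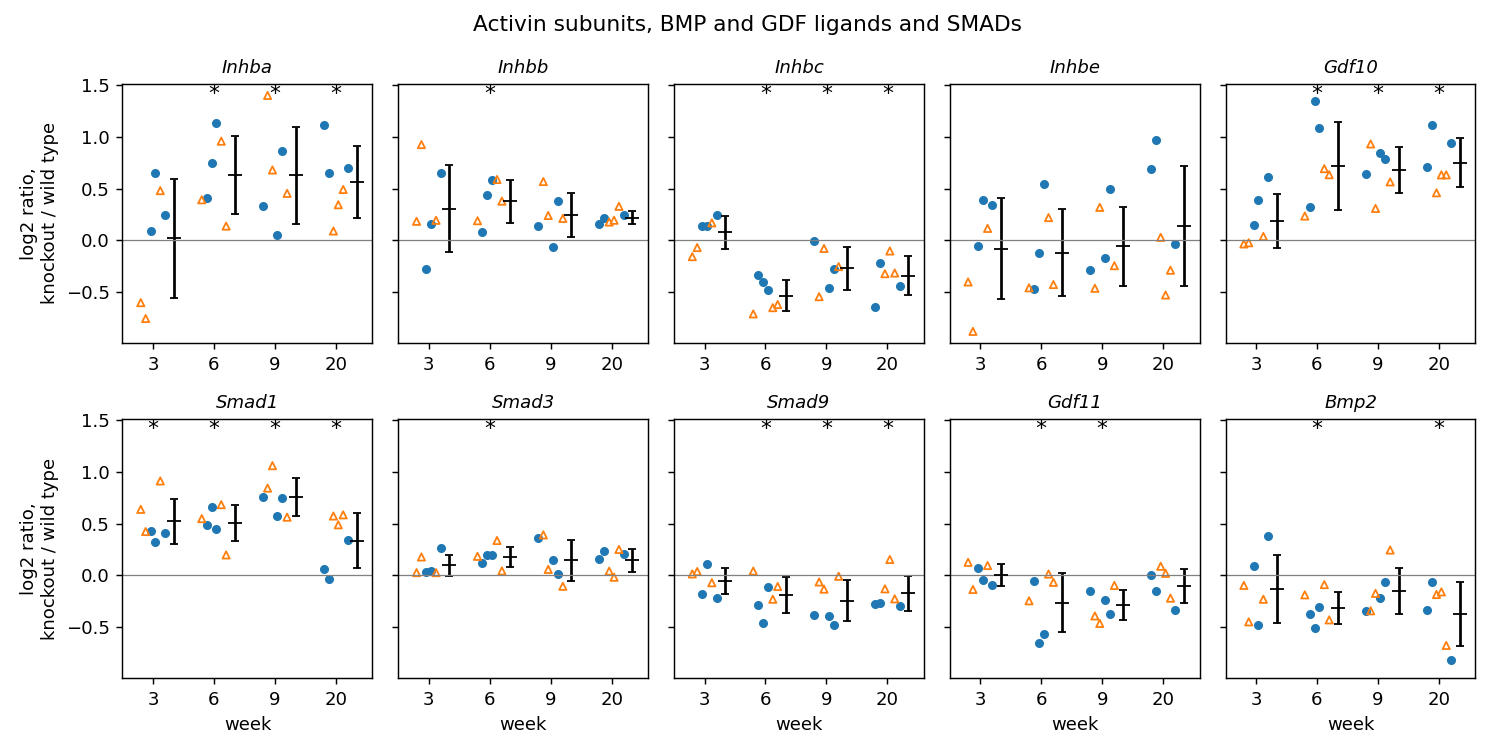
Log2 ratio of knockout over wild type on each of the 6 arrays a week for activin subunits, Gdf10, Gdf11, Bmp2 and SMADs; filled circles are arrays with the knockout in Cy5, open triangles with it in Cy3, and black marks the mean ± SD, with an asterisk where the adjusted p was below 0.05. Inhbc drops below 0 at 6 weeks (mean -0.54), Gdf10 and Inhba lie above 0 on all arrays from 6 weeks, and Smad1 is above 0 on 23 of 24 arrays.

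Whether a member's ratio differed between weeks was tested directly. In the moderated F test over the 4 weekly means 3 of 48 members passed, Inhbc (adjusted p = 0.00482), Tgfbr2 (adjusted p = 0.0203) and Gdf10 (adjusted p = 0.0338), which is 6.25% of members against 5.08% of all items. Tgfbr2 was 1.02 higher at 20 than at 3 weeks (SE 0.20, adjusted p = 0.00527), and its differences of 0.61 at 6 and 0.68 at 9 weeks from 3 weeks did not pass (adjusted p = 0.16 and 0.0676). Inhbc was lower than at 3 weeks by 0.61 at 6 weeks (difference -0.61, SE 0.099, adjusted p = 0.00279) and by 0.42 at 20 weeks (difference -0.42, adjusted p = 0.017). Gdf10 was higher than at 3 weeks by 0.49 at 9 weeks (SE 0.14, adjusted p = 0.0486) and by 0.56 at 20 weeks (adjusted p = 0.0204).

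The 9-to-3-week contrast also passed for Ltbp2 (0.71, SE 0.17, adjusted p = 0.0224) and Ltbp3 (0.57, SE 0.15, adjusted p = 0.0307), whose F tests did not (adjusted p = 0.0625 and 0.0691). Likewise the 20-to-3-week contrast passed for Gdf2 (0.31, SE 0.085, adjusted p = 0.0397), whose F test did not (adjusted p = 0.102). Of all items, 1.3%, 3.67% and 4.57% passed in the contrasts of 6, 9 and 20 against 3 weeks. These contrasts share the 3-week arrays. Between 6 and 9 weeks and between 9 and 20 weeks 0 members passed, as against 0.0767% and 0.0959% of all items. For Smad1 the fall in its ratio from 9 to 20 weeks, -0.42, did not pass (adjusted p = 0.124), nor did its F test (adjusted p = 0.0885). With the arrays of a single orientation 0 members passed the F test. Over 34 other alternatives the F test of Inhbc passed each time (adjusted p up to 0.0472), that of Tgfbr2 ended in 5 and that of Gdf10 in 12. Without array 3 or array 5 of 3 weeks, Tgfbr2 had adjusted p values of 0.0575 and 0.0542. Gdf10 lost its call without array 1, 2, 3, 4 or 5 of 3 weeks (adjusted p = 0.0796, 0.0595, 0.101, 0.0606 and 0.07) or array 2 of 20 weeks (adjusted p = 0.0524).

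Around the members, 107 other genes of the pathway were read from listed regulators and targets. In the order of the weeks, 16, 30, 38 and 22 of these rose and 4, 3, 7 and 5 fell, or 18.7%, 30.8%, 42.1% and 25.2% of them against 7.39%, 20.9%, 21.3% and 13.5% of all items. The lists hold genes known from textbooks to respond in fibrotic liver, and most genes named below had large means with 1 sign on all arrays of a week. Ccn2, Klf10, Tsc22d1 and Hamp fall outside that rule and were chosen after their values were seen. Bambi and Hey1 were also named after their values were seen, to account for the calls of their list. The 3-week count of 20 became 10 without array 1, 13 without array 3 and 7 with that week fitted on its own. Of the 125 calls of a pathway gene and a week, 66 held in every alternative other than the single orientations, and 42 ended without 1 of the arrays.

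Among 31 secreted and matrix regulators of ligands, 3, 8, 8 and 5 rose and 2, 0, 4 and 1 fell. These calls made up 16.1%, 25.8%, 38.7% and 19.4% of the list, against 7.39%, 20.9%, 21.3% and 13.5% of all items. Fstl1, a secreted follistatin-like glycoprotein that binds TGF-beta family ligands, rose at all weeks, by 0.49 ± 0.29, 0.79 ± 0.18, 1.07 ± 0.32 and 0.75 ± 0.31. Emilin1, an elastic fibre protein known in mice to restrain processing of the TGF-beta precursor, also rose at all weeks (0.52, 0.56, 0.85 and 0.63). The small proteoglycans that bind TGF-beta in the matrix rose as well: Dcn (decorin) by 0.58, 0.85 and 0.66 at 6, 9 and 20 weeks, and Bgn (biglycan) by 1.00 at 6 and 1.13 at 9 weeks. Itgav, the integrin alpha V chain that takes part in releasing latent TGF-beta, rose at 3, 6 and 9 weeks (0.23, 0.46 and 0.23), and Fst, the activin trap follistatin, at 6 weeks (0.59 ± 0.40). Sostdc1, a BMP antagonist, fell at 3 weeks (-0.56 ± 0.40), and Nodal, a ligand of the activin arm, at 9 weeks (-0.31 ± 0.27). The Sostdc1 call ended without array 1, 2 or 6 (adjusted p = 0.0538, 0.0929 and 0.0982), and with the week fitted on its own (0.135), as did that of Nodal (0.1). The Fst call ended without array 4 (adjusted p = 0.0791), and that of Itgav at 3 weeks without array 3, 5 or 6 (0.086, 0.0508 and 0.0587). With its least variable probe Itgav read 0.052 at 3 weeks and -0.090 at 9 weeks and passed at neither. The 3-week call of Fstl1 and the 9-week call of Itgav ended with their week fitted on its own (adjusted p = 0.0798 and 0.0768).

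Of 14 modulators at the receptor, 1, 4, 4 and 4 rose in the order of the weeks and 0 fell. That is 7.14%, 28.6%, 28.6% and 28.6% of the list, against 7.39%, 20.9%, 21.3% and 13.5% of all items. Fkbp1a (FKBP12), which holds type I receptors inactive, rose at all weeks (0.47, 0.80, 0.86 and 0.91). Pmepa1, a TGF-beta-induced membrane protein that sequesters SMADs, rose by 0.34, 0.42 and 0.30 from 6 weeks on, and Eng (endoglin), the endothelial co-receptor, by 0.31 at 6 and 0.34 at 9 weeks. Vasn (vasorin), which binds TGF-beta, rose by 0.39, 0.26 and 0.62 from 6 weeks on. The 3-week call of Fkbp1a ended without array 1, 2, 4 or 6 (adjusted p = 0.0677, 0.155, 0.0791 and 0.192), and the 6-week call of Eng without array 3 (0.0929). The 9-week call of Vasn ended without array 1, 2, 3, 5 or 6 (adjusted p = 0.0849, 0.114, 0.0512, 0.0697 and 0.131).

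Of 26 intracellular modulators, 3, 8, 7 and 3 rose and 1, 2, 2 and 4 fell. These calls made up 15.4%, 38.5%, 34.6% and 26.9% of the list, against 7.39%, 20.9%, 21.3% and 13.5% of all items. An entry of this list, Sar1a, entered through a synonym and is no gene of this pathway, and it passed at no week. The co-repressor gene Tgif1 rose at all weeks (0.48, 0.63, 0.65 and 0.63), and the co-repressor gene Ski rose by 0.35 at 6 and 0.36 at 9 weeks. Nedd4l, a ubiquitin ligase of activated SMADs, rose at 3, 6 and 9 weeks (0.33, 0.75 and 0.64). Smurf1, the ubiquitin ligase that targets the SMADs of the BMP arm, fell by 0.27, 0.36 and 0.35 on the log2 scale from 6 weeks on, and Strap, a receptor-associated inhibitor, fell by 0.27, 0.28 and 0.29 at 3, 6 and 9 weeks. At 3 weeks the call of Nedd4l ended without array 1 or 3 (adjusted p = 0.0914 and 0.0993), and that of Strap without array 1, 3 or 5 (0.0913, 0.111 and 0.111). The 6-week call of Smurf1 ended with no dye term (adjusted p = 0.0748), and the 9-week call of Strap with that week fitted on its own (0.0649).

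Of 28 genes known to be induced by TGF-beta, 10, 13, 19 and 10 rose and 0, 1, 1 and 0 fell. These calls made up 35.7%, 50%, 71.4% and 35.7% of the list, against 7.39%, 20.9%, 21.3% and 13.5% of all items. The list medians were 0.21, 0.30, 0.42 and 0.23. The fibrillar collagen gene Col3a1 had the largest mean of the list at each week, at 1.38 ± 0.51, 1.93 ± 0.57, 2.29 ± 0.52 and 1.99 ± 0.45, and Col1a1 rose by 1.01, 1.25, 1.53 and 1.31. Tgfbi, a secreted matrix protein named for its induction by TGF-beta, rose by 0.71, 0.77, 1.24 and 0.98, and Loxl2, a collagen cross-linking enzyme, by 0.56, 0.92, 1.27 and 1.16. Ccn2, the connective tissue growth factor, passed at 9 and 20 weeks (1.02 ± 0.89 and 1.00 ± 0.32). Acta2, the smooth muscle actin of myofibroblasts, rose at 3, 6 and 9 weeks (1.03, 1.43 and 1.27) and averaged 0.015 ± 0.77 at 20 weeks (adjusted p = 0.982). The 1 call downwards at 6 weeks was Klf10 (-0.58 ± 0.29) and at 9 weeks Tsc22d1 (-0.65 ± 0.14). The Klf10 call ended without array 3 (adjusted p = 0.0569), and that of Tsc22d1 without array 4 or 5 (0.0515 and 0.0734). At 3 weeks the call of Loxl2 ended without array 1 or 2 (adjusted p = 0.0954 and 0.14), and that of Acta2 without array 1 or 3 (0.0609 and 0.0685). The 9-week call of Ccn2 ended with that week fitted on its own (adjusted p = 0.0829).

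Of 13 genes known to be induced by BMPs, 0, 0, 2 and 3 rose and 1 fell at each week. Id3, an inhibitor of helix-loop-helix factors, rose by 0.47 ± 0.31 at 9 and 0.70 ± 0.13 at 20 weeks, and its 9-week call ended without array 5 or 6 (adjusted p = 0.0892 and 0.0677). The other rise at 9 weeks was Hey1, a call that ended with that week fitted on its own (adjusted p = 0.147). At 20 weeks the others were Hey1 and Bambi, whose calls ended in 11 and 8 of 16 alternatives. For both genes 5 of these alternatives left out 1 array. The call at 3 weeks was Hamp, the hepcidin gene, which fell by 1.82 on the log2 scale with an SD of 2.33 (adjusted p = 0.021) and ran from -4.89 to 0.95. That call ended without array 1, 2 or 6 (means -1.63, -1.42 and -1.17; adjusted p = 0.0878, 0.113 and 0.137), with the week fitted on its own (0.384) and with quantile normalization (0.0515). The fall at the later weeks was Smurf1, which stands in both lists. In number, the calls of the BMP list lay near the share of all items at 3 weeks (7.69% against 7.39%), below it at 6 weeks (7.69% against 20.9%), and at 23.1% and 30.8% at 9 and 20 weeks (against 21.3% and 13.5%). The difference between the lists was not tested.

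**Figure D4:**
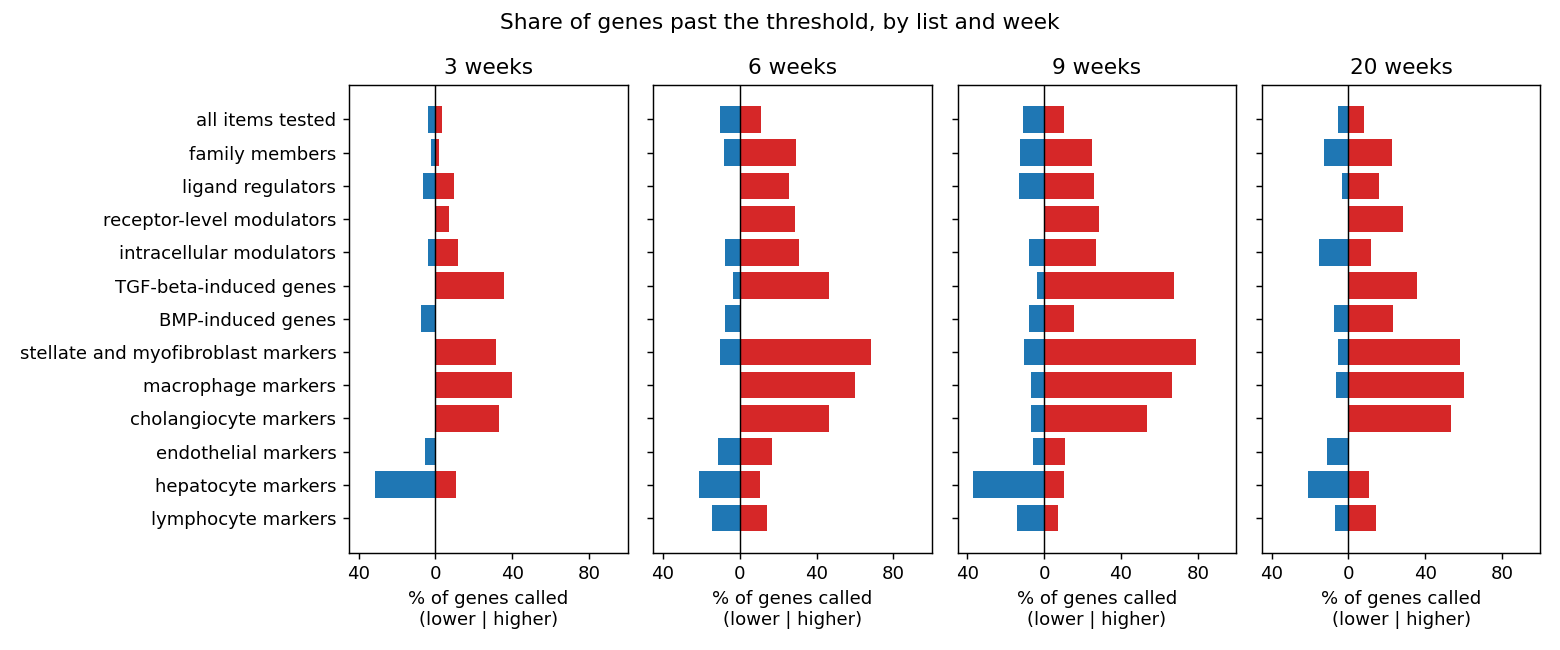
Percent of genes that passed the threshold at each week, higher (bars to the right) or lower (bars to the left) in the knockout. Rows are all 20861 items, the 48 members, the pathway lists and lists of cell type markers. The TGF-beta-induced list reaches 67.9% higher at 9 weeks, against 25% of members and 10.4% of all items.

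Markers of several liver cell types moved over the same weeks, and their part in the values of the members was not tested. Of 19 listed stellate cell and myofibroblast markers, 6, 13, 15 and 11 rose and 0, 2, 2 and 1 fell, and the median over the list ranged over the arrays from 0.13 to 0.44 at 3 weeks, from 0.40 to 0.85 at 6, from 0.51 to 1.08 at 9 and from 0.34 to 0.88 at 20. Several of these genes also stand in the TGF-beta-induced list. The stellate cell and myofibroblast markers that fell are not named here. Pdgfrb, a receptor of stellate cells and fibroblasts, read 0.34, 0.99, 1.03 and 1.04, and Lum (lumican), a fibroblast proteoglycan, 0.42, 1.45, 1.86 and 1.93, each passing from 6 weeks on, whereas Lrat, the retinyl ester enzyme of quiescent stellate cells, stayed between -0.022 and 0.069 and passed at no week. Of 15 bile duct markers 5, 7, 8 and 8 rose, among them the keratin Krt19 at 0.51, 0.86 and 0.78 from 6 weeks on and, with larger means, Tff3 (1.21, 2.36, 2.09 and 2.00). The 1 bile duct marker that fell was Onecut1 at 9 weeks (-0.31), which read 0.31 and passed at 20 weeks. Of 15 macrophage markers 6, 9, 10 and 9 rose, and Cd163 alone fell, at 9 and 20 weeks (-0.27 and -0.40). The marker genes named here were picked after their values were seen. Of 19 hepatocyte markers 6, 4, 7 and 4 fell and 2 rose at each week. Of 18 endothelial markers 0, 3, 2 and 0 rose and 1, 2, 1 and 2 fell. These calls made up 5.56%, 27.8%, 16.7% and 11.1% of the endothelial list, against 7.39%, 20.9%, 21.3% and 13.5% of all items. Calls either way made up 31.6%, 78.9%, 89.5% and 63.2% of the stellate list and 33.3%, 46.7%, 60% and 53.3% of the bile duct list. For macrophage markers they were 40%, 60%, 73.3% and 66.7%, and for hepatocyte markers 42.1%, 31.6%, 47.4% and 31.6%. Of 14 lymphocyte markers 0, 2, 1 and 2 rose and 0, 2, 2 and 1 fell, or 0%, 28.6%, 21.4% and 21.4%. Ratios carry no level, so whether a marker was present at all in these livers was not tested.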

How the data were processed

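The measurements came from a table of log ratios that the authors deposited, with 22575 features, 24 arrays and 0 missing values. The deposited values were taken as log2, although no source names the base. How background was corrected and arrays normalized or filtered is not given in the sources used, and centring and direction are unstated. No fold change was computed from it. The sign was turned where Cy5 held wild type RNA, because arrays of opposite orientation in a week correlated negatively (median r from -0.51 to -0.29); same-orientation arrays correlated at 0.18 or more.

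Value rows were joined to probes by reading the 215 by 105 grid by column with both axes reversed: copies of 48 repeated accessions then correlated with a mean r of 0.66, against 0.0053 in the direct join. Of the probes 18218 had 1 gene, 16 several and 4341 none; 43 gene identifiers had no match in the reference table (GRCm38.p6), 0 symbols changed, and the table had 0 columns of other samples.

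Arrays were centred on their medians and probes averaged per symbol. Linear models with 1 mean per week and 1 dye term (limma 3.58.1, lmFit and eBayes, R 4.3.3; 19 residual degrees of freedom) were fitted to all 24 arrays, tests were two-sided, p-values were adjusted by Benjamini-Hochberg over 20861 items, and the scripts were tested on simulated data. A dye effect passed for 11.5% of items. Errors are SDs over 6 arrays or standard errors of contrasts. Members, lists and tests were chosen with earlier results of these data known. Members that passed with 1 sign on all arrays of a week, and the TGF-beta ligands and receptors, were named by rule. Of each pathway list at most 6 genes a week were taken from the largest means with 1 sign on all arrays. Ccn2, Klf10, Tsc22d1, Hamp, Bambi, Hey1 and the marker genes were chosen after their values were seen.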

Additional observations from a re-analysis of the deposited data

Results flagged for a closer look

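Single arrays far from the other 5 of their week were looked for in each of the 192 groups of a member and a week, by the gap to the nearest array over the range of the group (Dixon's criterion). There were 9 such arrays, 4.69% of the groups, and chance flags about 1 group in 20. For Tgfbr1, array 6 of 3 weeks read -1.04, with the nearest at -0.22. For Acvrl1, array 2 of 6 weeks read 1.15, with the nearest at 0.31, and the 6-week call of that gene ended without it. For Gdf9, array 2 of 3 weeks read -1.43, with the nearest at -0.29. For Smad9, array 4 of 20 weeks read 0.15, the one array of that week above 0. For Acvr2a, array 6 of 6 weeks read 0.0051, higher than the others, and array 4 of 20 weeks read -0.60, lower than the others. Array 3 of 20 weeks read 0.59 for Bmp15, array 6 of 9 weeks read -0.44 for Gdf3, and array 1 of 6 weeks read -0.096 for Gdf5. These genes, other than Acvrl1 and Smad9, passed at no week.

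Among members that passed the F test, the differences from 3 weeks that passed were those of Tgfbr2 (20 against 3 weeks, 1.02), Gdf10 (9 against 3 weeks, 0.49, and 20 against 3 weeks, 0.56) and Inhbc (6 against 3 weeks, -0.61, and 20 against 3 weeks, -0.42).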

How the results depend on the processing

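Over the 192 ratios of a member and a week, removing the centring left 189 on the same side of the threshold with the same direction, and removing the dye term 190; fitting each week on its own left 171, and averaging the closest arrays of opposite orientation 173. The 1 reversal was Bmp5 at 20 weeks with its least variable probe, 0.016 against -0.18.

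Counts of members called moved past 1.5 times as follows. At 3 weeks the 2 became 7 with arrays scaled to a common spread, 5 with quantile normalization, and 1 with the week fitted on its own, with arrays of either orientation alone, or without arrays 1 and 2 together, the last an alternative added after seeing the data. At 6 weeks the 18 became 3 with knockout-in-Cy3 arrays alone. At 9 weeks the 18 became 10 with the week on its own, 8 with knockout-in-Cy5 and 7 with knockout-in-Cy3 arrays. At 20 weeks the 17 became 11 and 1 in these orientations, and 9 with the closest opposite pair averaged. Leaving out 1 array gave 1 to 3, 10 to 16, 15 to 19 and 9 to 15. One orientation holds 3 arrays a week.

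Pathway genes at 3 weeks (20) became 7 on their own, 6 and 5 in the single orientations (Cy5, Cy3), 12 with the closest pair averaged (opposite or, added later, any orientation), 11 with a robust prior and 9 without arrays 1 and 2; at 6 weeks (33) 11 with Cy3 alone; at 9 weeks (45) 29 on their own and 22 and 21 in these orientations; at 20 weeks (27) 4 with Cy3 alone. Leaving out 1 array gave 10 to 18 (10 without array 1 and 13 without array 3), 28 to 35, 36 to 44 and 21 to 26. Members differing between weeks (3) became 6 with a common spread or quantile normalization, 0 in either orientation alone, and 1 with either closest pair averaged or a robust prior; leaving out 1 array gave 1 to 6, with 1 without array 3 or 5 of 3 weeks, 6 without array 2 and 5 without array 6 of 9 weeks. The cause of these changes was not tested, beyond the smaller number of arrays where arrays were left out.

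Array numbers did not pair samples across weeks (correlations of same-numbered deviations from -0.36 to 0.50). With the array number as a replicate block the members called were 2, 18, 17 and 18 and the pathway genes 19, 36, 44 and 28 in the order of the weeks. Of these members 1, 16, 17 and 17 were also called without the block. Between weeks 3 members differed, 2 of them as without the block, and Gdf10 did not pass (adjusted p = 0.051). In all, 184 of the 192 ratios kept their side of the threshold.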
